A study of Canis lupus familiaris with 10 samples.

Results

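The transcription factors of the activator protein 1 (AP-1) family and related immediate early factors were examined in the canine retina, with 10 genes listed for the purpose: FOS, FOSB, FOSL2, JUN, JUNB, JUND, ATF3, EGR1, KLF4 and KLF6. Every probe set to which the array annotation gives one of these symbols and no other was taken. This found 14 of the 42924 probe sets on the array, for 9 of the 10 genes (of 15115 genes that the annotation names singly), while JUND had none. Of the 14, 8 probe sets, representing 6 genes (FOS, FOSL2, JUN, JUNB, KLF4 and KLF6), had a log2 intensity above 7 in at least 2 retinas, the definition of an expressed transcript in the methods of the study, and were tested. The single probe sets of FOSB and ATF3 and both probe sets of EGR1 did not reach this minimum.

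AP-1 is a dimer of proteins with a basic leucine zipper, formed by a member of the JUN family with another JUN protein, a FOS protein or an ATF protein. Many of these genes are immediate early genes, whose transcription begins within minutes of a stimulus from factors already present in the cell, and whose mRNAs decay rapidly. In retinal neurons, JUN is activated by phosphorylation through the JUN N-terminal kinases after damage to the axon, ATF3 is a commonly used marker of injured neurons, and the Krüppel-like factors KLF4 and KLF6 are known for opposing effects on axon growth. An array measures mRNA alone and carries no information on phosphorylation of these proteins.

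Retinas of 5 dogs with primary closed-angle glaucoma were compared with those of 5 healthy control dogs, with 1 array per dog. The affected dogs were 2 Shiba Inus, labelled as 5 and 14 years old, 2 Basset Hounds, 5 and 7 years old, and 1 Dalmatian, 9 years old, all with spontaneous disease, and dogs of 1 breed are called younger and older here. All controls were Beagles aged 4 years, numbered 1 to 5 below. The eyes of the affected dogs were removed from clinic patients that had received topical drugs against high intraocular pressure (latanoprost and brinzolamide), whereas controls had been euthanized for reasons unrelated to the study. Eyes went into RNAlater after enucleation and RNA was later taken from the retina. Breed, age, medication and the way in which eyes were obtained cannot be told apart from disease in these groups. Values are log2 intensities after robust multiarray averaging (RMA), each group mean is given with its SD over 5 dogs, and differences are glaucoma minus control from limma, a linear model with moderated variances, with the p-value adjusted over all 18416 tested probe sets. The threshold for a call was an adjusted p under 0.05, with no minimum on the fold change. Intensities of different probe sets depend on their probes, so levels of different genes were not tested against one another, and intensity served only to choose the probe set of a gene and the marker named from a list, and in sums over markers.

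The retinas differed in cell type markers, and these differences accompany every comparison that follows. Of the measured microglia and macrophage markers 9 of 9 were higher in glaucoma, with summed intensities of 7140 to 17600 against 1570 to 2500 in controls. Of the ganglion cell markers 7 of 10 were lower and 1 was higher, with sums of 7440 to 12100 against 19000 to 32300. The higher one was SNCG on its brightest probe set (2.52), whereas the study lists SNCG as decreased on another probe set. Of the amacrine, horizontal and bipolar cell markers 5 of 5 were lower. Müller glia and astrocyte markers gave 2 higher genes of 9, and endothelial and pericyte markers 1 of 4. Rod and cone markers gave 2 lower genes of 12, and pigment epithelium markers 0 of 11 by limma. At an unadjusted p under 0.05, limma gave 4 higher glial, 1 higher endothelial, 5 lower rod and cone and 4 higher pigment epithelium markers. Over all genes tested, 8.04% were higher and 8.65% lower by the adjusted p, and 15.2% and 17% by the unadjusted p. By the adjusted p, counts such as 1 of 4 or 2 of 12 cannot be set apart from these shares. No neutrophil or red cell marker with a probe set was measured above the minimum. CSF1R, CD68, CD163, LY86, AQP4, GFAP and PDGFRB passed the minimum through affected dogs alone, and ISL1 through controls alone. Each did so in the group where it was higher, so the counts that hold these markers are a description. The markers named for having the highest intensity in their lists were C1QA for microglia (a difference of 2.23), STMN2 for ganglion cells (-1.59, not called), TRPM1 for bipolar cells (-2.78), SAG for photoreceptors (-0.90, not called), VIM for Müller glia (0.22, not called), KDR for endothelium (0.03, not called) and TTR for pigment epithelium (2.67, not called). The retina of the younger Shiba Inu stood apart, with a median rod and cone marker at -3.59 and a median pigment epithelium marker at 2.79 relative to the control mean. Among the controls, control 4 had a median pigment epithelium marker at 1.49. In such bulk samples fewer cells of a type and less RNA per cell cannot be told apart, and the part of the marker differences in the results was not tested.

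JUNB, a JUN protein that is induced together with FOS, was the only listed gene called. Its probe set had intensities of 7.18 in the younger Shiba Inu, 6.44 in the older Shiba Inu, 6.88 in the younger Basset Hound, 6.40 in the older Basset Hound and 7.08 in the Dalmatian. Controls 1 to 5 had 6.11, 6.08, 6.09, 5.88 and 6.46. Control 5 lay above the older Shiba Inu and the older Basset Hound, so the groups overlapped, while the other controls lay below every affected retina. The mean was 6.80 ± 0.36 in glaucoma and 6.12 ± 0.21 in controls, a difference of 0.67 (SE 0.18, 95% confidence interval 0.29 to 1.06, adjusted p = 0.024), or 1.59-fold. JUNB passed the minimum through the younger Shiba Inu and the Dalmatian alone, both in the group where it was higher, and with no minimum it was called as well (adjusted p = 0.0312). The call was lost without the Dalmatian (adjusted p = 0.0626), without control 2 (0.0602), without control 3 (0.0501) and without control 4 (0.0607), and was kept without each of the other retinas, including the younger Shiba Inu (difference 0.58, adjusted p = 0.0381).

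FOS, the founding FOS protein, had the largest difference of the 6 tested genes and did not pass. The brighter of its probe sets had intensities of 12.33 and 9.86 in the younger and older Shiba Inus, 11.93 and 9.71 in the younger and older Basset Hounds and 11.02 in the Dalmatian. Controls 1 to 5 had 9.57, 8.64, 9.73, 9.41 and 10.25. The younger Shiba Inu, the younger Basset Hound and the Dalmatian lay above every control, whereas the older Shiba Inu and the older Basset Hound lay within the range of the controls. The means were 10.97 ± 1.18 and 9.52 ± 0.58, a difference of 1.45 (SE 0.51, 95% confidence interval 0.33 to 2.57, unadjusted p = 0.0159, adjusted p = 0.0749), or 2.73-fold. The other probe set placed the same 3 retinas at 9.51, 8.91 and 7.99, above every control (6.62 to 7.73), and the remaining affected retinas at 6.99 and 7.05. Its difference was 1.04 (95% confidence interval 0.02 to 2.07, adjusted p = 0.145). FOS was called without the older Shiba Inu (difference 1.73, adjusted p = 0.0404) and without the older Basset Hound (1.76, adjusted p = 0.0363), the lowest affected retinas. Without any other single retina it was not called (adjusted p = 0.0825 to 0.171), as without the younger Shiba Inu (difference 1.11, adjusted p = 0.118).

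JUN, the AP-1 subunit most closely tied to the response of neurons to axon damage, was not called. Its probe set had intensities of 9.64 and 8.91 in the younger and older Shiba Inus, 8.03 and 8.87 in the younger and older Basset Hounds and 7.90 in the Dalmatian. Controls 1 to 5 had 7.66, 6.75, 6.61, 8.19 and 8.60. The order of the affected dogs was unlike that of FOS: the older Shiba Inu and the older Basset Hound were here, with the younger Shiba Inu, the 3 retinas above every control, and the younger Basset Hound and the Dalmatian lay below controls 4 and 5. The difference was 1.11 (SE 0.44, 95% confidence interval 0.14 to 2.07, adjusted p = 0.107), or 2.15-fold. Controls themselves spread widely (SD 0.88), more than 99.2% of all tested probe sets did.

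FOSL2, or FRA2, a FOS protein without the strong activation domain of FOS, showed smaller differences in both of its probe sets. The brighter had 7.16 and 7.38 in the younger and older Shiba Inus, 6.95 and 6.96 in the younger and older Basset Hounds, and 7.46 in the Dalmatian, against 7.00, 6.77, 6.89, 6.74 and 6.93 in controls 1 to 5. Both Basset Hounds lay below control 1 and the other affected dogs lay above every control. The difference was 0.31 (95% confidence interval 0.04 to 0.59, adjusted p = 0.107), and that of the other probe set was 0.32 (95% confidence interval -0.02 to 0.66, adjusted p = 0.174), with the Basset Hounds again the lowest of the affected dogs. The dimmer of these probe sets passed the minimum through affected dogs alone, and the brighter through 3 affected dogs and 1 control. With both Basset Hounds left out, FOSL2 was called (difference 0.47, adjusted p = 0.0286). It was not called with both Shiba Inus left out (0.26, adjusted p = 0.266), with age in the model (0.14, adjusted p = 0.555) or without any single retina (adjusted p = 0.0642 to 0.228).

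**Figure D1:**
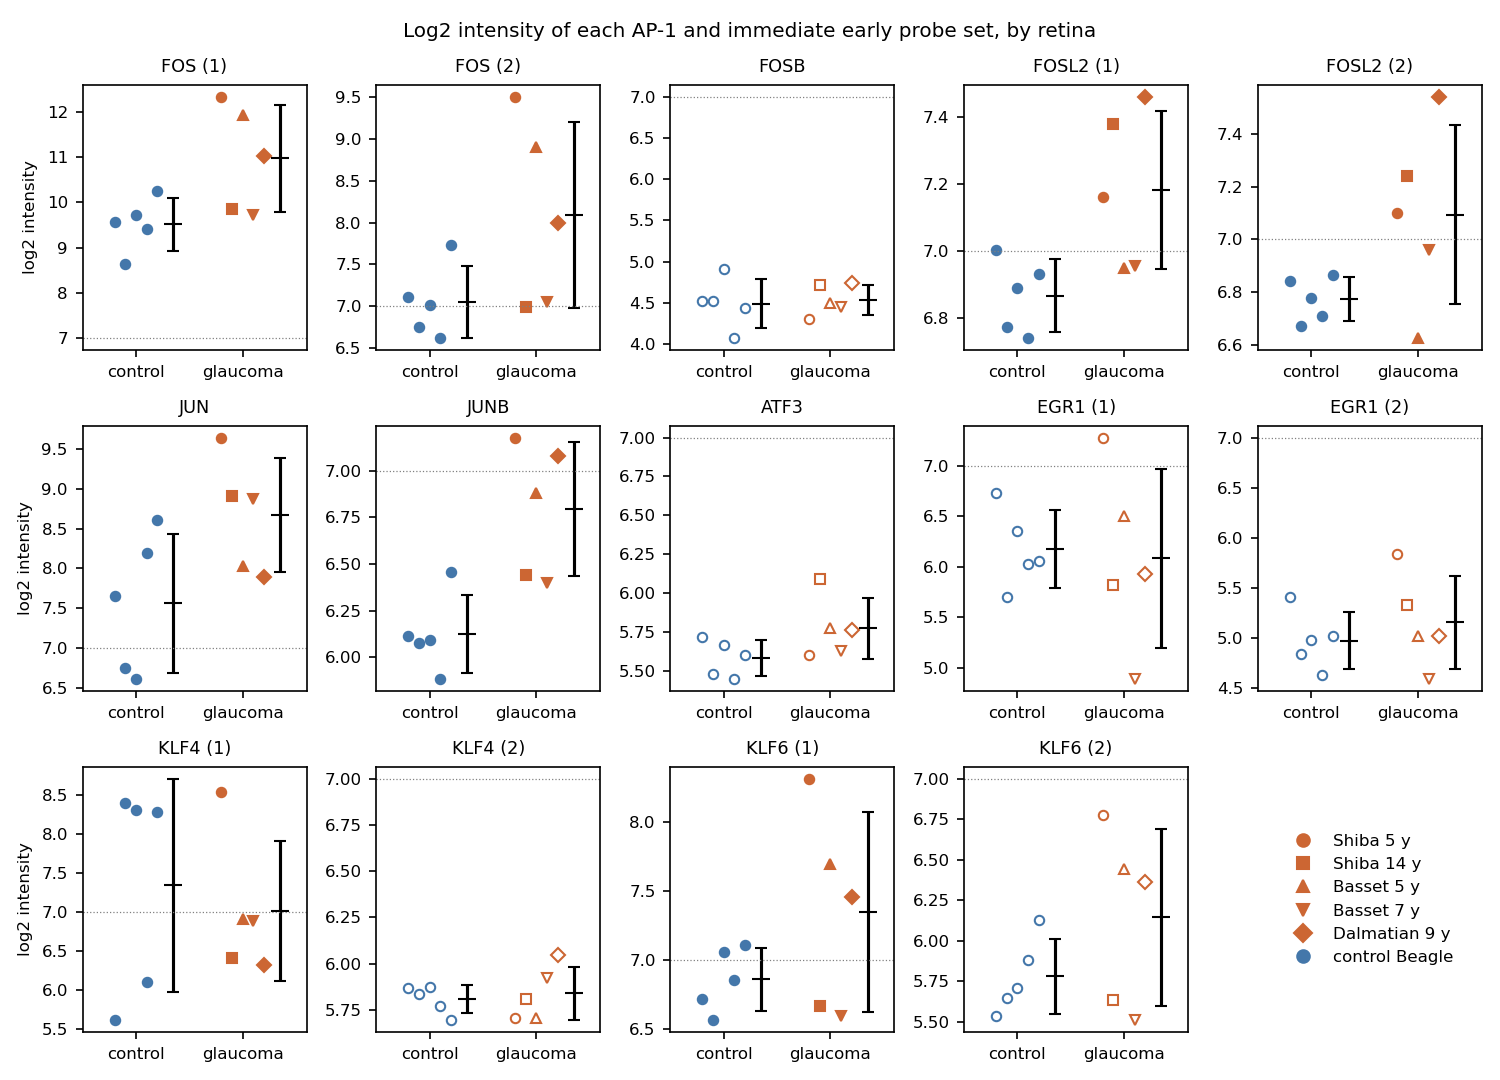
Log2 intensity (vertical axis, with its own range in each panel) of each of the 14 probe sets in control and glaucomatous retinas. Each point is 1 dog, the symbols mark breed and age of the affected dogs, horizontal and vertical black marks give mean and SD over 5 dogs, the dotted line is the minimum of 7, and open symbols mark probe sets that were not tested. In FOS (1) and JUNB the older Shiba Inu and the older Basset Hound are the lowest affected retinas, while in JUN they lie at 8.91 and 8.87, above the other Basset Hound and the Dalmatian.

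KLF6, a zinc finger factor linked to axon growth, was not called. Its tested probe set had 8.31 and 6.67 in the younger and older Shiba Inus, 7.69 and 6.59 in the younger and older Basset Hounds and 7.46 in the Dalmatian. Controls 1 to 5 had 6.72, 6.56, 7.06, 6.85 and 7.10. As for FOS, 3 affected retinas lay above every control, and the older Shiba Inu and the older Basset Hound lay below most controls. The difference was 0.49 (95% confidence interval -0.17 to 1.14, adjusted p = 0.289), and the probe set below the minimum gave 0.37 (95% confidence interval -0.14 to 0.88) with the affected dogs in the same order. Without the younger Shiba Inu the difference of the tested probe set was 0.24.

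KLF4, a zinc finger factor known to restrain axon growth, was the one tested member with a negative difference, and it was not called. Its tested probe set had 8.55 in the younger Shiba Inu and 6.33 to 6.92 in the other affected dogs. Controls 2, 3 and 5 had 8.40, 8.32 and 8.29, and controls 1 and 4 had 5.62 and 6.11. The controls thus fell into a high and a low set that enclosed all but the highest affected retina, and their SD of 1.37 exceeded that of 99.7% of tested probe sets. The difference was -0.33 (95% confidence interval -1.71 to 1.06, adjusted p = 0.756), an interval that leaves its direction unsettled. Without any single one of 8 of the 10 retinas (the younger and older Shiba Inus, the Dalmatian and each control) it moved by more than 1.5 times, within -0.76 to -0.06. The other probe set of KLF4 stayed below the minimum in every retina (means 5.84 and 5.81), and did not separate the controls in this way.

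The remaining members were too dim to be tested. EGR1, a zinc finger factor induced with FOS in many cells, had intensities of 4.88 to 7.28 in glaucoma and 5.70 to 6.73 in controls on its brighter probe set, and the younger Shiba Inu alone was above 7. Its differences were -0.09 (95% confidence interval -0.90 to 0.72) and 0.18 (-0.29 to 0.66). The affected dogs ordered on the brighter probe set as they did for FOS and KLF6. ATF3 had means of 5.77 ± 0.19 and 5.58 ± 0.12, a difference of 0.19 (95% confidence interval -0.04 to 0.42), with the older Shiba Inu highest. FOSB had means of 4.54 and 4.49 and a difference of 0.05. At these intensities an array may not respond to a change in the mRNA, so such values do not show that the genes were unaffected.

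**Figure D2:**
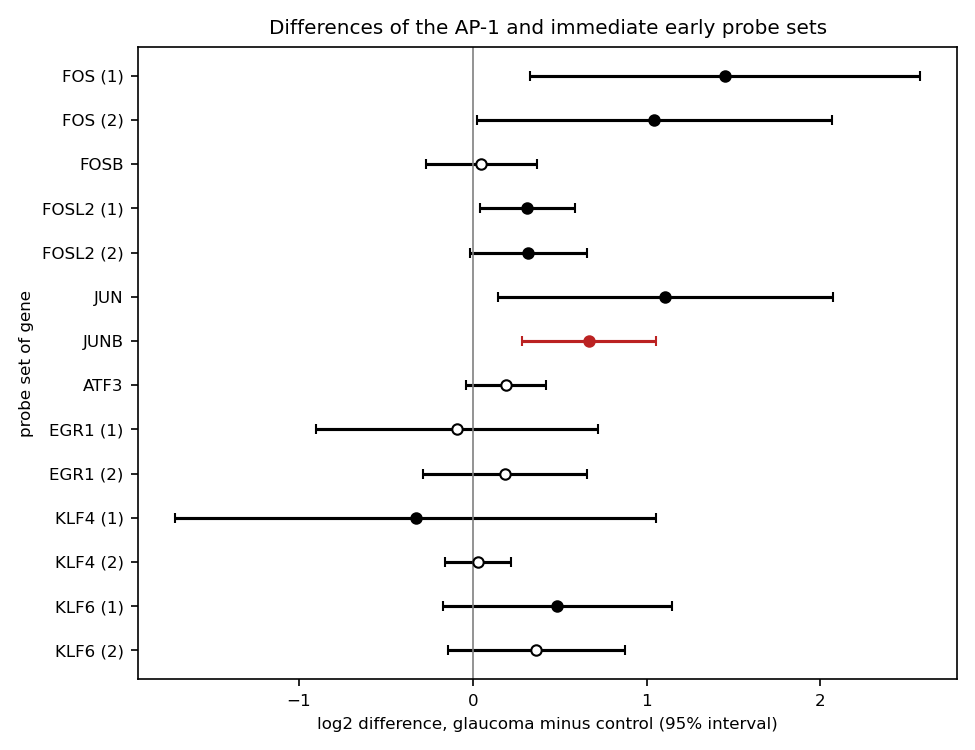
Difference of mean log2 intensity, glaucoma minus control (horizontal axis), for each of the 14 probe sets, with 95% confidence intervals from limma over 5 dogs per group. Filled symbols were tested, open symbols lay below the minimum and take their interval from a fit to all probe sets, and red marks the one called, JUNB at 0.67. The intervals of both FOS probe sets, JUN and the brighter FOSL2 probe set also lie above 0 before adjustment over all probe sets.

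Among the 8 tested probe sets, 1 was called higher and 0 lower, where 7.58% of all tested probe sets were called higher and 9.4% lower. By gene the count was 1 higher and 0 lower of 6, against 8.04% and 8.65% of all 7900 genes tested. A single call among so few members cannot be set apart from these shares. At an unadjusted p under 0.05 limma gave 5 of the 8 probe sets, all higher, and 0 lower. These were both of FOS, the brighter of FOSL2, and those of JUN and JUNB. Of all tested probe sets, 14.4% were higher and 18.2% lower at that threshold. These counts are a description, since JUNB and the dimmer FOSL2 probe set passed the minimum through affected dogs alone. The brighter FOSL2 probe set passed it through 3 affected dogs and 1 control. With no minimum, JUNB was the only one of the 14 probe sets called, against 8.31% of all probe sets in either direction. Student's t-test, which the study names for its volcano plot, called JUNB alone after Benjamini-Hochberg adjustment (adjusted p = 0.0488). The two-sided exact Wilcoxon rank sum test, named in the methods for the arrays, gave unadjusted p = 0.0317 for JUNB and the brighter FOSL2 probe set. It gave 0.0556 for the brighter FOS probe set, and 0.151 for the dimmer probe set of each of FOS and FOSL2. It called 0 probe sets, since the smallest p that 5 against 5 dogs allow is 0.00794, which adjusts to 0.0534. In 0 of the 8 probe sets did the groups separate without overlap, whereas 6.82% of all tested probe sets had every affected retina above every control and 8.03% had every one below. The median difference of the 6 genes was 0.58, beside -0.007 over all genes tested. Of the 6 genes 5 were above 0, beside 3878 of all 7900 genes. JUNB passed the minimum through affected dogs alone, so these values are a description as well.

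Among the tested probe sets, the spread over the affected dogs was widest for FOS and narrowest for FOSL2. The median SD in glaucoma was 0.72 over the 8 tested probe sets and 0.28 over all 18416, and in controls it was 0.33 and 0.19. The SD was larger in glaucoma in 6 of the 8, a share of 75% beside 75.2% of all tested probe sets. FOS lay at percentile 98.1 for its SD in glaucoma and JUNB at percentile 65.1. Relative to the control mean, the median of the 6 genes was 1.33 in the younger Shiba Inu, 0.61 in the younger Basset Hound, 0.60 in the Dalmatian, 0.33 in the older Shiba Inu and 0.14 in the older Basset Hound. Control 5 reached 0.53 on the same scale, and the other controls lay between -0.20 and 0.11. Control 5 was the highest control for FOS, JUN, JUNB and KLF6.

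The older Shiba Inu and the older Basset Hound were the lowest affected retinas in both probe sets of FOS and of KLF6, in JUNB and in the brighter probe set of EGR1. Within each breed, the younger dog therefore had the higher value of these genes, and with 1 younger and 1 older dog per breed age cannot be told apart from other differences between dogs. Of the 8 tested probe sets 4 had these dogs as the lowest pair, which held for 15.9% of all tested probe sets, a pattern that was noticed in these values and has no test. Of the cell type lists, none had a median that placed this pair together below or above the other affected dogs, while the single markers SNCG, SOX9, VWF, RGR and RDH5 had the pair lowest, and the part of cell composition in the order was not tested. The control probe sets for the 3' and 5' ends of actin and GAPDH mRNA, whose signal ratio rises as RNA degrades, gave a mean log2 ratio over 4 pairs that was highest in this pair, at 2.06 and 1.84 against 1.53 to 1.66 in the other affected dogs. By pair of probe sets, that for Cfa-actin was 5.50 and 4.59 in these retinas against 2.83 to 3.29, and that for Cfa-gapdh was 0.81 and 0.83 against 1.06 to 1.63, the opposite order. The AFFX-Cf pairs had these retinas within the range of the other affected dogs. The part of RNA quality in the pattern was not tested.

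GADD45B, ZFP36, TRIB1 and NFIL3 were higher in glaucoma among the other immediate early genes. The list held 37 genes, of which 29 had a probe set and 14 were measured. Of the 14, 4 were higher and 0 lower (by limma at an unadjusted p under 0.05, 5 higher and 0 lower). Their median difference was 0.53 and 12 of 14 were above 0, beside 3878 of all 7900 genes. Over all genes tested, 8.04% were higher and 8.65% lower by the adjusted p, and 15.2% and 17% by the unadjusted p, which are the shares to read the counts of this and the following lists against. GADD45B, a stress-induced protein that acts on kinase cascades and the cell cycle, had 9.89 and 8.49 in the younger and older Shiba Inus, 9.31 and 8.33 in the younger and older Basset Hounds and 9.62 in the Dalmatian, against 6.92 to 7.92 in the controls. Every affected retina was above every control, a difference of 1.81 (SE 0.31, adjusted p = 0.00306), and the call was kept without each retina in turn. ZFP36, which promotes decay of mRNAs such as that of TNF, had 8.31, 7.84, 8.31, 7.82 and 8.84 in the affected dogs in the same order and 6.86 to 7.67 in controls. It was higher by 0.93 (SE 0.21, adjusted p = 0.012) without overlap, and 1 of its 2 tested probe sets was called. In both genes the older Shiba Inu and the older Basset Hound were again lowest among the affected dogs, yet above the controls.

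TRIB1, a pseudokinase that binds kinases of the MAP kinase pathway, was higher by 1.62 (SE 0.42, adjusted p = 0.0246). Control 4 was at 9.89, within the range of the affected dogs (9.17 to 11.23), and the other controls were at 8.07 to 8.23. Its call was lost without the Dalmatian and without each of controls 1, 2, 3 and 5 (adjusted p = 0.0544 to 0.0632). NFIL3, a basic leucine zipper repressor, was higher by 0.61 (SE 0.17, adjusted p = 0.0309), with 2 of its 3 tested probe sets called. That call was lost without the older Basset Hound, without the Dalmatian and without any single control (adjusted p = 0.0505 to 0.0697). DUSP6, a phosphatase of the ERK kinases, differed by 0.97 (95% confidence interval -0.24 to 2.17) and the matricellular protein CCN2 by 0.78 (-0.65 to 2.22), and neither was called. DUSP6 differed by 0.57 without the younger Shiba Inu, and CCN2 by 0.37 without the younger Basset Hound and 0.43 without control 1. Among these 14 genes, 7 (IER2, DUSP1, ZFP36, CCN1, CCN2, TRIB1 and GADD45B) had the older Shiba Inu and the older Basset Hound as the lowest affected retinas, as did 3 of the 6 listed AP-1 and KLF genes and 16.5% of all genes tested. The median of the 14 genes relative to the control mean was 0.98, 0.73 and 1.09 in the younger Shiba Inu, the younger Basset Hound and the Dalmatian, and 0.11 and 0.03 in the other affected dogs.

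**Figure D3:**
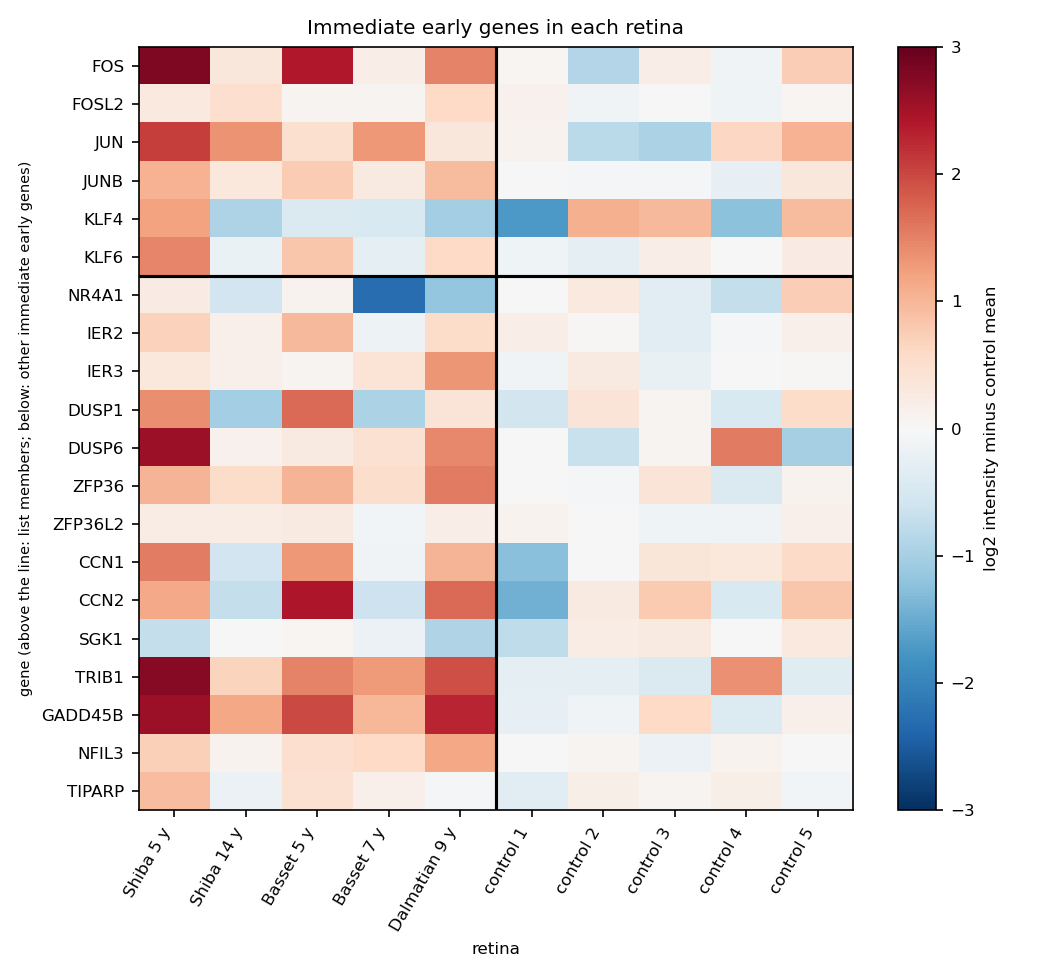
Log2 intensity minus the control mean (colour, from -3 to 3) of 6 AP-1 and KLF genes, above the line, and 14 other immediate early genes, below it, in each of the 10 retinas. Among the affected dogs the older Shiba Inu and the older Basset Hound have the lowest values in FOS, JUNB, KLF6 and 7 of the genes below the line, while JUN is high in both and KLF4 divides the controls.

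Among the genes listed as other AP-1 and basic leucine zipper partners, CREB1 alone was called. NFIL3, a basic leucine zipper factor counted with the immediate early genes above, was called as well. Of 17 other AP-1 and basic leucine zipper genes 11 had a probe set and 5 were measured, and 1 of these was higher and 0 lower, also at an unadjusted p under 0.05 in limma (median difference 0.23). CREB1, which activates transcription in response to cyclic AMP and calcium, was higher by 0.50 (SE 0.14, adjusted p = 0.0379). Its call was lost without the younger Shiba Inu, either Basset Hound in turn or the Dalmatian, and without control 2, 4 or 5 (adjusted p = 0.0587 to 0.091). CREB1 passed the minimum through affected dogs alone, and with no minimum its adjusted p was 0.047. NFE2L2, the regulator of antioxidant genes, differed by 0.50 (95% confidence interval -0.07 to 1.06) and ATF2, a partner of JUN, by -0.41 (-1.20 to 0.38), and neither was called. Without the younger Shiba Inu NFE2L2 differed by 0.27, and without the Dalmatian ATF2 differed by -0.04. FOSL1, BATF, BATF3 and JDP2 lay below the minimum.

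Of the kinases and regulators upstream of AP-1, 18 of 22 had a probe set and 9 were measured, with 2 higher, 2 lower and a median of -0.05. Both lower genes belong to the JUN N-terminal kinase branch, whose other measured genes in the list were not called. MAPK10, or JNK3, the isoform found mainly in neurons, had 7.56 to 8.10 in affected dogs and 8.58 to 9.07 in controls, so that every affected retina lay below every control, and the difference was -1.05 (SE 0.14, adjusted p = 0.000543). MAP2K4, a kinase that activates the JUN N-terminal kinases, was lower, with a difference of -0.60 (SE 0.13, adjusted p = 0.0102), also without overlap, and both calls were kept without each retina in turn. The MAP2K4 call was lost with age in the model (-0.43, adjusted p = 0.101) and with the ratio of the AFFX-Cf control pairs (-0.51, adjusted p = 0.115). Ganglion cell and amacrine markers were lower in the same retinas, as given above, and their part in the MAPK10 difference was not tested. MAP2K1, or MEK1, of the ERK branch was higher by 0.71 (SE 0.19, adjusted p = 0.0263) and RPS6KA1, or RSK1, a kinase downstream of ERK, by 0.54 (SE 0.13, adjusted p = 0.0193). The MAP2K1 call was lost without the Dalmatian or control 2, 3 or 5 (adjusted p = 0.0531 to 0.0673), and that of RPS6KA1 without the Dalmatian, control 2 or control 5 (adjusted p = 0.051 to 0.0535). RPS6KA1 passed the minimum through affected dogs alone, and with no minimum its adjusted p was 0.0227. MAPK14, a p38 kinase, differed by 0.39 (adjusted p = 0.062) and RPS6KA3 by -0.36 (adjusted p = 0.0715). Of the 3 tested probe sets of MAPK14, 1 was called. MAPK14 was called by the mean of its probe sets (0.44, adjusted p = 0.0343) and with age in the model (0.58, adjusted p = 0.0358). With the ratio of the AFFX-Cf control pairs MAPK14 was not called (0.40, adjusted p = 0.226). MAPK8 and MAPK9, the other JUN N-terminal kinases, lay below the minimum.

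Of 25 injury and regeneration genes 17 were measured, and 6 were higher and 2 lower, with a median of 0.22. STAT3, a transcription factor activated by cytokines, was higher by 1.27 (adjusted p = 0.000202), the secreted phosphoprotein SPP1 by 3.95 (adjusted p = 0.0012), the glial filament GFAP by 2.46 (adjusted p = 0.00228) and the metalloproteinase inhibitor TIMP1 by 1.88 (adjusted p = 0.00359). GFAP passed the minimum through affected dogs alone, and with no minimum its adjusted p was 0.00322. None of the 17 genes had the older Shiba Inu and the older Basset Hound as the lowest affected retinas. The tubulin-binding protein STMN2 differed by -1.59 (adjusted p = 0.0552) and the cell cycle inhibitor CDKN1A by 0.61 (adjusted p = 0.0511), and neither passed. Both were called with array weights (STMN2 adjusted p = 0.00354, CDKN1A 0.00421) and without the Shiba Inus (0.0128 and 0.00641). Neither was called with age in the model (0.239 and 0.151) or with the ratio of the AFFX-Cf control pairs (0.358 and 0.24). GFAP and VIM also belong to the glial marker list, and STMN2 and GAP43 to that of ganglion cells. Of 4 other measured KLF genes only KLF5, a zinc finger factor linked to proliferation, was called (0.56, adjusted p = 0.00989), with KLF12 at -0.33 and KLF11 at 0.05 not called. KLF5 also passed the minimum through affected dogs alone (adjusted p = 0.0105 with no minimum), and its call was lost with age in the model (0.55, adjusted p = 0.0571).

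**Figure D4:**
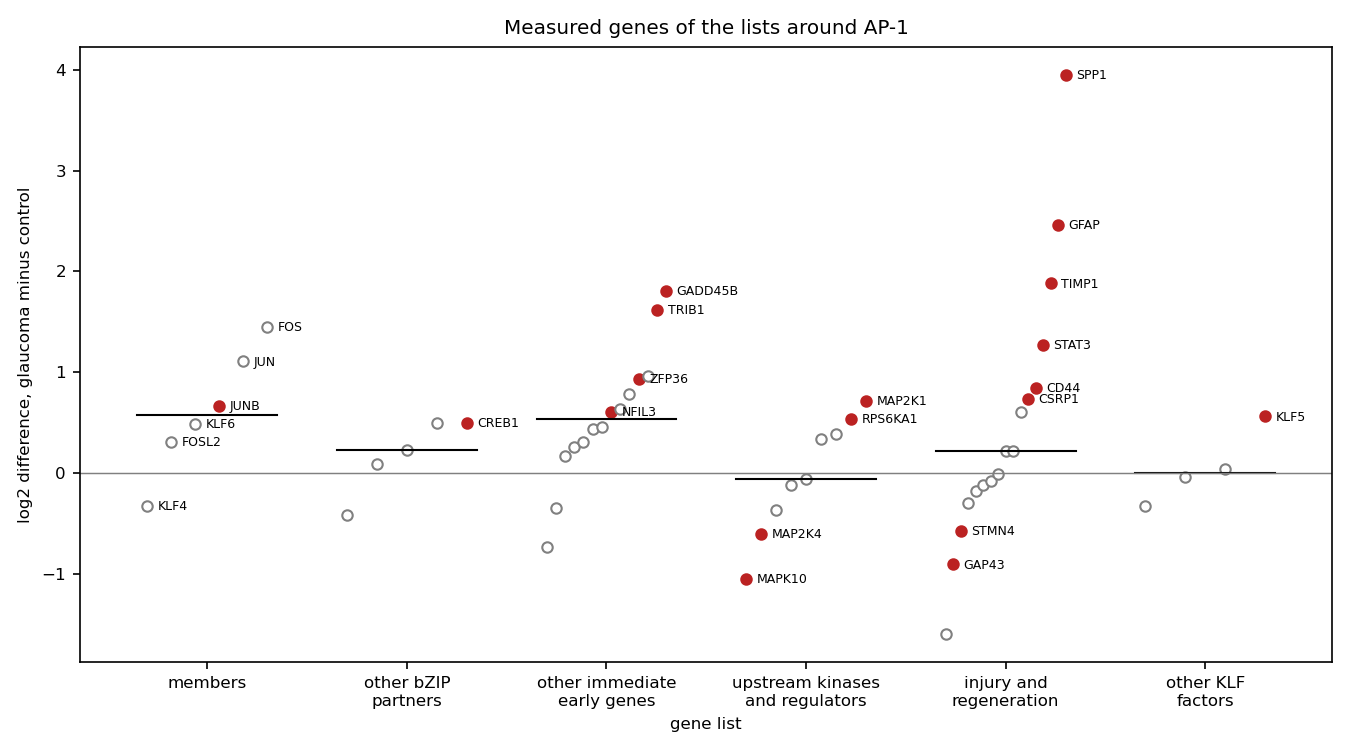
Difference of log2 intensity, glaucoma minus control (vertical axis), of each measured gene in the 6 gene lists, sorted by size within a list. Red filled points were called at an adjusted p under 0.05, open points were not, and the black line of each list is its median, from -0.05 for the upstream kinases to 0.58 for the listed AP-1 and KLF genes.

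FOS and JUNB depended on the covariate in the model. With age in the model FOS was called (difference 2.33, adjusted p = 0.0252) and so was JUNB (0.87, adjusted p = 0.0302), but all controls had the same age and the slope rested on the affected dogs alone. The ages are those of the sample labels, and a table of the study gives lower ages for the older Shiba Inu and the Dalmatian, with which the model was not fitted. With the mean ratio of 3' to 5' signal over 4 actin and GAPDH control pairs in the model, JUNB was called (adjusted p = 0.0115) and FOS was not (adjusted p = 0.0589). That ratio was 1.73 ± 0.22 in glaucoma and 1.74 ± 0.30 in controls. With the ratio from the AFFX-Cf pairs alone, at 0.94 ± 0.14 and 1.19 ± 0.22, neither JUNB (difference 0.52, adjusted p = 0.215) nor FOS (1.23, adjusted p = 0.337) was called, and of the other immediate early genes GADD45B was the nearest to the threshold (1.48, adjusted p = 0.052). The calls of ZFP36 (adjusted p = 0.135), TRIB1 (0.176), NFIL3 (0.221), CREB1 (0.101), RPS6KA1 (0.154) and MAP2K1 (0.198) were lost with it as well.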

How the data were processed

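Retinal RNA of 5 glaucomatous and 5 healthy dogs had been hybridised to Affymetrix Canine 2.0 arrays, 1 per dog, without pooling. The deposited values are linear intensities that the authors normalized with RMA, which corrects background, equalizes the distributions of the arrays and summarizes probes. The genome build behind the annotation is not given in the sources used here. Log2 intensities were computed, 111 control probe sets were left out, and the 18416 probe sets above 7 in at least 2 retinas entered the fit (limma 3.58.1, R 4.3.3), where p-values were adjusted over all of them by the Benjamini-Hochberg method. Of 42924 probe sets 29254 had 1 gene symbol, 439 several and 13231 none. Each gene took the values of its brightest tested probe set, by the mean of the 10 retinas. Probe sets ending in _s_at can match more than 1 transcript, and signal from related transcripts was not tested. Groups, breeds and ages follow the sample labels. Arrays have no read depth, and precision was limited by the number of dogs.

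The members and gene lists were chosen with earlier results of these data known. All members were named, with, from each other list, up to 4 called genes of smallest adjusted p and up to 2 uncalled genes of largest difference, and the brightest gene of each marker list. Genes counted by the order of the dogs were named after their values were seen. Alternatives were other filters, normalizations, variance models and tests, covariates, a replicate block, breeds or single retinas left out, and other probe sets for a gene. The significance analysis of microarrays (SAM) that the methods also name was not used here. The code of the fit was run on simulated data that had the same SD in both groups. In the real data the SD was larger in glaucoma in 75.2% of tested probe sets, which the simulation did not cover.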

Additional observations from a re-analysis of the deposited data

Results flagged for a closer look

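In 2 of 76 groups of 5 retinas examined (each listed probe set and each named pathway gene in either group), 1 retina stood far from the other 4 by Dixon's criterion, which chance alone meets in about 1 of 20 groups. For KLF4, on its tested probe set, the younger Shiba Inu was at 8.55 and the other affected retinas at 6.33 to 6.92. For TRIB1 control 4 was at 9.89 and the other controls at 8.07 to 8.23.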

How the results depend on the processing

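Of the listed genes, 1 was higher as reported. The number was 0 with a minimum of 7 in at least 5 retinas, which drops JUNB from the test, with a 2-fold minimum, with the exact Wilcoxon test at either threshold and with the 3' to 5' ratio of the AFFX-Cf pairs, an alternative chosen after seeing the data. It was 2 with age in the model, with the replicate block and without the Basset Hounds, and 0 to 2 with each retina left out. Probe sets of these genes gave the same numbers except 3 with age, 3 without the Basset Hounds and 2 (against 1 gene) without the younger Basset Hound (0 to 2 with each retina left out). None was lower under any of these. The difference of KLF4 turned positive with age (0.28).

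Both groups carry replicate numbers 1 to 5, but the numbers did not pair the retinas (correlation of same-numbered deviations -0.24 to 0.07, and no affected retina correlated best with the control of its own number). The replicate block moved the calls of FOS (adjusted p = 0.042) and kept JUNB (0.0254). It gave 0 higher bZIP partners, 1 higher upstream kinase and 1 lower injury gene.

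Counts of the other lists moved as follows. Higher bZIP partners were 3 with no filter and 0 with the stricter filter, both Wilcoxon settings, the t-test, the 2-fold minimum, the AFFX-Cf ratio and without the Basset Hounds (0 to 1 with a retina left out). Higher other immediate early genes were 0 with the adjusted Wilcoxon test and the AFFX-Cf ratio, and 2 with its unadjusted form, the t-test and the 2-fold minimum (2 to 4), and 1 was lower with no filter or with array weights. Higher upstream genes were 0 with the adjusted Wilcoxon test, the 2-fold minimum and the AFFX-Cf ratio and 1 with the unadjusted Wilcoxon test and the t-test (0 to 3). Lower ones were 0 with the adjusted Wilcoxon test and 1 with the 2-fold minimum, age and the AFFX-Cf ratio (2 each with a retina left out). Higher injury genes were 0 with the adjusted Wilcoxon test (4 to 7), and lower ones were 0 with the adjusted Wilcoxon test, the 2-fold minimum and the AFFX-Cf ratio, 1 with the t-test and 4 without the Shiba Inus (1 to 4 with a retina left out: 4 without the younger Shiba Inu and 1 without control 1, 2, 4 or 5). Higher KLF genes were 0 with the stricter filter, the adjusted Wilcoxon test, the 2-fold minimum and age. KLF11 turned to -0.17 without the Shiba Inus, and to -0.076, -0.021 and -0.0006 without the younger Shiba Inu, control 3 and control 4 (-0.076 to 0.14 with a retina left out). Dim probe sets limit what can be said of FOSB, ATF3 and EGR1.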
